A study of Mus musculus with 12 samples.

Results

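The response of mouse kidney cortex to lipopolysaccharide (LPS) on a control diet was examined 4 h after injection, across all genes that were measurably expressed. A gene was included when its deposited FPKM (fragments scaled to transcript length and to the number of mapped fragments) was at least 1 in at least 3 of 6 libraries, 3 from pair-fed mice given saline (PF) and 3 from pair-fed mice given LPS (PF_LPS). That rule kept 13058 of the 47719 genes in the table, 11197 of them protein-coding. All mice were male C57BL6/J animals, 8 weeks old per the labels, and no genotype other than that strain is stated. For 6 weeks both groups ate a liquid diet in which maltose-dextrin replaced the calories of ethanol, the control diet of the Lieber-DeCarli protocol, and each was injected into the peritoneum 4 h before the tissue was taken, PF with saline and PF_LPS with 10 mg/kg LPS from E. coli. The series also holds 6 libraries from ethanol-fed mice, 3 with saline (EtOH) and 3 with LPS (EtOH_LPS). They share 1 estimate of the spread with the pair-fed libraries in the model and are otherwise used only for comparison. The labels number the replicates without saying that each is a different mouse, so every p-value measures the spread between these libraries, which may in part be technical.

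LPS, a component of the outer membrane of Gram-negative bacteria, is recognised by TLR4 on leukocytes, endothelial cells and tubular cells. The receptor signals to NF-kB and, through the adaptor TRIF, to type I interferon. Kidney cortex is mostly proximal tubule, with glomeruli, distal segments and a dense bed of capillaries between them. During endotoxaemia the endothelium changes to an adhesive and leaky state, and tubular cells are known to lower many of the transporters and transcription factors of their differentiated state.

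Each sum below is over a whole marker list in 1 library. The cortex label was checked against such lists. Markers of proximal tubule segments S1 and S2 summed to 6672 to 9115 FPKM per library and those of segment S3 to 60290 to 112700 FPKM, most of it from the single gene Kap. The 7 adrenal markers summed to under 1 FPKM in every library, and 6 of 7 skeletal muscle markers stayed under 1 FPKM in every library, with Acta1, Ckm, Tnnt3 and Tnnc2 at 0. Urothelial and inner medullary markers summed to 19.2 to 38.2 FPKM, adipose markers to 30.8 to 87.6 FPKM and liver markers to 75.4 to 126 FPKM. Few genes of these lists reached the filter and were tested. They were 0 of 7 adrenal, 1 of 7 muscle, 2 of 10 urothelial and inner medullary, 1 of 7 adipose and 4 of 8 liver genes. None of them passed, though 1 liver gene rose without PF_LPS 2. With so few tested, that says little about a change of other tissue in the samples. In bulk tissue, fewer cells of a type and less RNA per cell cannot be told apart, and that holds for every marker named here.

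Some features of the libraries touch the results. The deposited FPKM summed to 1067640 to 1352740 per PF library and to 1292780 to 1935820 per PF_LPS library, so that dividing each library by its own sum moved the median log2 fold change of all genes from -0.01 to -0.42. Fragment totals are unknown. A rough depth relative to PF 1, read from the steps between low values and shared by 11.8% to 15.1% of low genes, was 0.987 and 1.199 in PF 2 and PF 3 and 0.491 to 0.744 in PF_LPS, an order that the number of genes above 0, 23188 to 27808 in PF and 23408 to 25153 in PF_LPS, did not follow. Fold change also followed transcript GC content (Spearman -0.32 over 13018 genes, a description only, since genes of 1 library share it), and PF_LPS 2 and PF 1 were the libraries in which GC-rich genes were lowest relative to their own group. Libraries correlated with the others of their group at a mean r of 0.925 to 0.970.

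Counted over all genes, 1537 rose and 934 fell at an adjusted p under 0.05, which is 11.8% and 7.15% of the genes tested. Every adjusted p here comes from limma on log2(FPKM + 1) with Benjamini-Hochberg adjustment over the 13058 genes, and fold changes on that scale understate the change of genes at low FPKM. The groups did not overlap in 929 of the 934 genes that fell and in 1529 of the 1537 that rose, against 15.7% of all genes tested with every PF_LPS library lower and 18.9% with every PF_LPS library higher. Falls were smaller than rises. The median log2 fold change was -0.87 among the genes that fell and 1.26 among those that rose, 31 genes fell by at least 2 log2 units, and 393 rose by that much. The median PF level was close in both sets, 4.53 FPKM for genes that fell and 4.56 FPKM for genes that rose. Of the genes that fell, 844 were protein-coding, 438 had a PF mean of at least 5 FPKM, and 10 had one of at least 100 FPKM.

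How many genes fell depended on the scaling more than how many rose. With every library set to the same FPKM total, 2576 genes fell (19.7%) and 841 rose (6.44%), so the share of calls that were rises went from 62.2% to 24.6%, and it was 30.7% with equal totals over protein-coding genes. With the GC trend removed from each library, 788 fell (6.03%) and 2118 rose, a share of rises of 72.9%, and 603 of the 934 genes still fell. Leaving out PF 2 left 484 falls and leaving out PF 3 left 504. A set of 312 genes (2.39%) fell as reported and under each of the 20 alternatives that could test them, and 800 (6.13%) rose in all. Expression below the filter in 1 group matters for counting too: 271 genes were at 1 FPKM or more in the 3 PF libraries only, and 201 of these are among the 934, since a gene that entered through PF alone had to be lower in PF_LPS. Among the 10437 genes at 1 FPKM or more in all 6 libraries, 547 fell and 1102 rose.

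**Figure D1:**
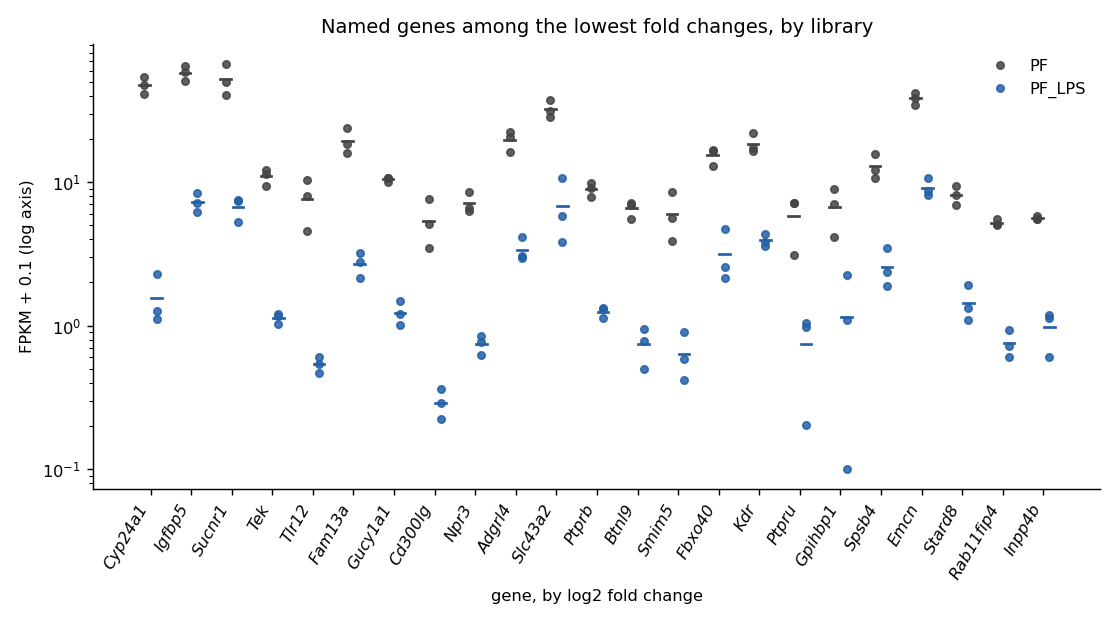
FPKM of named genes from among the 24 lowest fold changes in each of the 3 PF and 3 PF_LPS libraries (points, with the group mean as a bar), on a log axis after adding 0.1 so that a value of 0 can be drawn. All PF_LPS points lie below all PF points because only genes without overlap between the groups could be chosen. The genes run from Cyp24a1 with a log2 fold change of -4.33 to Inpp4b with -1.82.

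Cyp24a1, which encodes the enzyme that inactivates calcitriol and 25-hydroxyvitamin D (chromosome 2, 170482708 to 170497145 in GRCm38), had the lowest fold change of any protein-coding gene that fell. It measured 41.2, 54.2 and 47.5 FPKM in PF and 1.17, 2.2 and 1.01 FPKM in PF_LPS. It fell by 4.33 ± 0.63 (standard error, SE) on the log2 scale (adjusted p = 0.000612). The strand setting of the counting is not given in the sources used here, and Cyp24a1 overlaps Pfdn4 on the opposite strand, so reads of the pair may be shared.

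Igfbp5, a secreted binding protein of insulin-like growth factors that is high in glomerular capillaries, measured 50.8, 58.7 and 64.7 FPKM in PF and 8.30, 7.06 and 6.12 FPKM in PF_LPS. It fell by 2.86 ± 0.20 on the log2 scale (adjusted p = 5.42e-07). Sucnr1, the receptor through which extracellular succinate acts on juxtaglomerular and tubular cells, went from 66.4, 40.4 and 49.9 FPKM to 7.46, 7.25 and 5.19 FPKM. Sucnr1 fell by 2.79 ± 0.31 (adjusted p = 4.07e-05).

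The other named genes with low fold changes include many of capillary endothelium. Tek, Kdr, Ptprb, Adgrl4 and Emcn are described with the endothelial list. Cd300lg, a receptor of capillary and venular endothelium, was at 3.35, 4.98 and 7.5 FPKM in PF and 0.123, 0.261 and 0.187 FPKM in PF_LPS, and Gpihbp1, which carries lipoprotein lipase to the capillary lumen, was at 4.05, 7.0 and 8.92 against 0.991, 0 and 2.17 FPKM. Groups without overlap were a condition for naming these genes, and 1 PF_LPS library listed Gpihbp1 at 0. Btnl9, a butyrophilin-like gene, had means of 6.47 ± 0.91 and 0.643 ± 0.23 FPKM (SD over 3 libraries).

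Apart from the genes just named, the lowest fold changes belonged to genes of several functions. Which cells express them in this tissue was not examined. Gucy1a1, a subunit of soluble guanylate cyclase, the receptor of nitric oxide, measured 10.5, 10.7 and 10.0 FPKM in PF and 1.38, 1.11 and 0.912 FPKM in PF_LPS. It fell by 2.43 ± 0.20 (adjusted p = 2.5e-06), and its partner subunit Gucy1b1, named after its values were seen, went from a mean of 2.46 to 1.20 FPKM and had a log2 fold change of -0.65. Npr3, the clearance receptor of natriuretic peptides, went from 6.20, 6.51 and 8.41 FPKM to 0.670, 0.752 and 0.520 FPKM. The groups stood apart in all 3 genes, which for Gucy1a1 and Npr3 was a condition of being named.

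Fam13a fell by 2.48, and Slc43a2, a transporter of large neutral amino acids, fell by 2.21. Fbxo40 (an F-box protein), Spsb4 (a SOCS box protein), Stard8 (a GTPase-activating protein), Rab11fip4 (a Rab11 effector) and Inpp4b (a phosphoinositide phosphatase) had log2 fold changes of -2.05, -2.0, -1.95, -1.89 and -1.82. Tlr12, a Toll-like receptor gene of the mouse, was at 4.51, 7.97 and 10.2 FPKM in PF and at 0.441, 0.366 and 0.502 FPKM in PF_LPS. Ptpru, a receptor tyrosine phosphatase, fell by 2.00, and Smim5 fell by 2.13. These 10 genes and the endothelial genes just named fell under each alternative that tested them. Fam13a, Slc43a2, Spsb4, Rab11fip4, Inpp4b and Smim5 overlap genes on the opposite strand, so their reads may be shared.

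**Figure D2:**
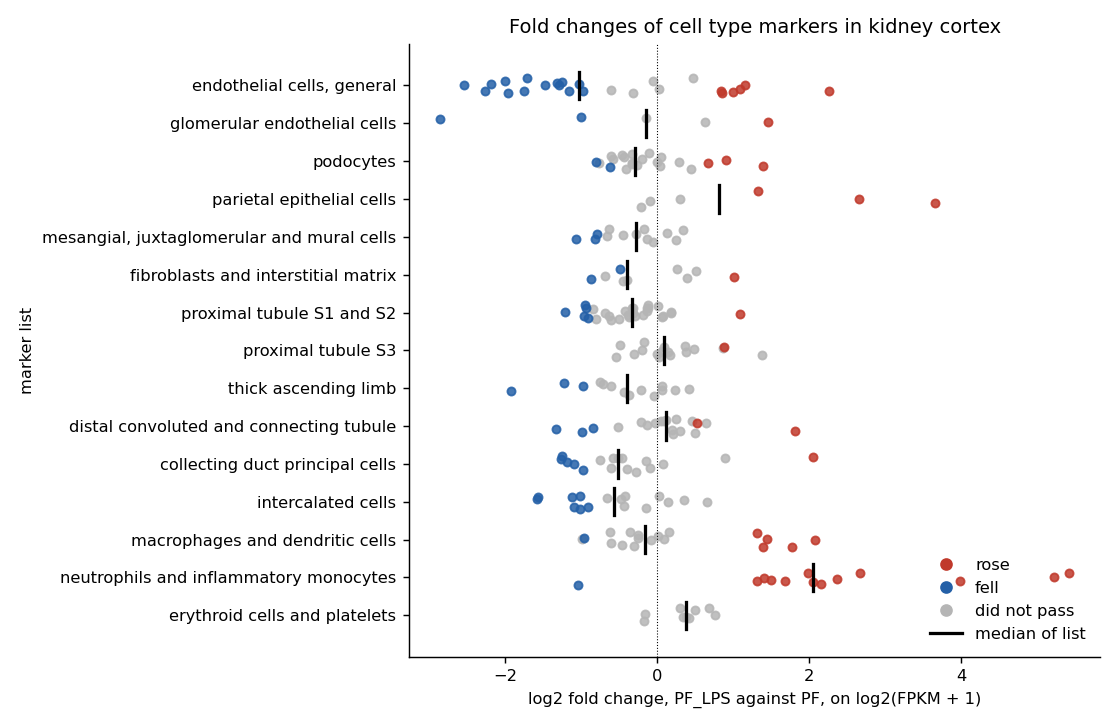
Log2 fold changes of the tested markers of 15 cell types (points, coloured by whether the gene rose, fell or did not pass at an adjusted p under 0.05; bars, list medians; vertical jitter carries no value). Endothelial markers spread to both sides, intercalated and principal cell markers lie mostly to the left, and neutrophil markers mostly to the right; with equal FPKM totals the median of all genes is -0.42, and the S3 and distal convoluted tubule medians change sign to negative.

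Among cell types, the endothelial list had the most falls. Of 30 general endothelial markers 25 were tested, 14 fell (56.0%, against 7.15% of all genes tested) and 6 rose (24%, against 11.8%), and the median log2 fold change was -1.03 against -0.01 over all genes. The whole list summed to 210 to 268 FPKM in PF and 119 to 151 FPKM in PF_LPS, without overlap, and 2 of the 30 markers were under 1 FPKM in all 6 libraries. All 14 falls held under every alternative that tested them, and 2 of the 6 rises did.

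Tek, the receptor tyrosine kinase that angiopoietins bind (Tie2; chromosome 4, 94739289 to 94874976), measured 9.38, 11.3 and 12.1 FPKM in PF and 1.10, 0.931 and 1.07 FPKM in PF_LPS. It fell by 2.55 ± 0.16 (adjusted p = 2.3e-07). Ptprb, the phosphatase that opposes Tie2 (VE-PTP), went from 7.79, 9.05 and 9.78 FPKM to 1.23, 1.03 and 1.20 FPKM. Kdr, the main signalling receptor of VEGF, went from 16.4, 17.1 and 22 FPKM to 3.51, 3.75 and 4.23 FPKM and fell by 2.01 ± 0.18 (adjusted p = 7.73e-06). The PF_LPS values of these receptors lay within a narrow range far below every PF value.

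Emcn, an endothelial sialomucin, fell by 1.97 from a mean of 38.2 to 9.06 FPKM. Pecam1, an adhesion molecule of endothelial junctions, measured 15.1, 16.3 and 19.4 FPKM in PF and 6.00, 6.29 and 6.48 FPKM in PF_LPS. Egfl7, a secreted endothelial protein that hosts a microRNA in its intron, fell by 1.75, and Plvap, which forms the diaphragms of fenestrae, fell by 1.72. Eng, a coreceptor of BMP9, fell by 1.32, and the transcription factor Erg fell by 0.98 to a mean of 0.586 FPKM. Ramp2, the partner that makes Calcrl an adrenomedullin receptor, fell by 1.48, while Calcrl itself was at 10.9, 11.3 and 11.4 FPKM in PF and 12.8, 24.2 and 13 FPKM in PF_LPS and did not pass (adjusted p = 0.25).

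Other endothelial genes rose or did not pass. S1pr1, the receptor of sphingosine 1-phosphate, measured 2.14, 3.56 and 3.01 FPKM in PF and 15.5, 16.0 and 21.6 FPKM in PF_LPS and rose by 2.26 ± 0.20 (adjusted p = 4.79e-06). Cdh5, VE-cadherin of the adherens junction, measured 4.47, 5.79 and 6.49 against 12.8, 9.87 and 17 FPKM and rose by 1.09, or by 0.64 with equal FPKM totals, where it no longer passed. Flt1, the decoy receptor of VEGF, had means of 11.4 ± 2.0 and 11.6 ± 0.94 FPKM. So markers of 1 cell type moved in opposite directions in the same libraries.

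Genes of endothelial activation rose with these changes. Of 15 tested, 11 rose (73.3%, against 11.8% of all genes), 2 fell, and the median was 1.69, or 1.40 with equal totals. Vcam1, a leukocyte adhesion molecule, went from 3.37, 2.60 and 3.42 FPKM to 80.3, 77.9 and 80.6 FPKM, and Icam1 from 2.26, 4.05 and 4.90 to 103, 57.4 and 85.7 FPKM. The falls were Esm1, an endothelial proteoglycan, at 14.3, 13.1 and 24.5 FPKM in PF and 4.06, 5.30 and 4.81 FPKM in PF_LPS, and Plau, the urokinase gene that renal tubules express at high levels, at 193, 267 and 169 against 117, 55.2 and 80.4 FPKM. Plau did not pass without PF 2 or without PF_LPS 2.

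Around Tie2 and VEGF, 15 genes were tested, 5 fell (33.3%, against 7.15% of all genes) and 2 rose (13.3%, near the 11.8% of all genes). The same number fell without each library in turn. Besides Tek, Ptprb and Kdr, Tie1, the orphan relative of Tie2, fell by 1.03 from a mean of 2.42 to 0.664 FPKM, and Svep1, a matrix protein, fell by 0.88. Both angiopoietins rose, and the VEGF ligands Vegfa, Vegfb and Vegfc, with log2 fold changes of -0.39, -0.11 and -0.04, did not pass. Angpt2, the context-dependent antagonist of Tie2, measured 0.676, 0.619 and 0.585 FPKM in PF and 2.67, 3.90 and 3.70 FPKM in PF_LPS, and Angpt1, the agonist, went from 6.69, 5.46 and 5.90 to 9.55, 19.6 and 13.2 FPKM. In both, every PF_LPS library was above every PF library, and Angpt1 passed in 14 of 20 alternatives. Angpt2 lies within Mcph1, which is on the opposite strand.

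Glomerular and stromal lists held fewer calls. Of 22 tested podocyte markers 3 rose (13.6%, against 11.8% of all genes), 2 fell (9.09%, against 7.15%) and the median was -0.30. With equal totals, where 6.44% of all genes rose and 19.7% fell, 1 podocyte marker rose, 8 fell and the median was -0.58. Podxl, the anionic coat protein of podocytes that endothelium also makes, went from 44.5, 46.9 and 42.7 to 27.9, 22.2 and 25.4 FPKM and fell by 0.81 (adjusted p = 0.026), and Nes, an intermediate filament gene, fell by 0.62. Neither fall passed without PF 1, PF 2, PF 3 or PF_LPS 2, and 1 of them passed without PF_LPS 3. Cd2ap, an adaptor of the slit diaphragm, rose by 0.91, though not without PF 2 or PF 3.

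Of 5 tested markers of glomerular endothelium, Igfbp5 and Ehd3 fell and Plat, tissue plasminogen activator, rose by 1.46. Plat did not pass with equal totals. Ehd3, an endocytic protein that marks these cells, was at 4.76, 6.60 and 7.65 FPKM in PF and 3.05, 1.95 and 2.87 FPKM in PF_LPS. Parietal epithelial markers numbered 6, of which Akap12, Cd44 and Aldh1a2 rose under every alternative and none fell. Cd44, a hyaluronan receptor, measured 0.715, 0.714 and 0.641 FPKM in PF and 10.7, 9.27 and 9.02 FPKM in PF_LPS.

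In the mesangial, juxtaglomerular and mural list, 3 of 13 tested genes fell (23.1%, against 7.15% of all genes), none rose and the median was -0.28. Agtr1a, the type 1 angiotensin II receptor, measured 16.9, 16.2 and 21 FPKM in PF and 8.00, 9.61 and 6.72 FPKM in PF_LPS. Itga8, an integrin of mesangial cells, fell by 0.82 under each alternative that tested it, and Des (desmin) fell by 0.79. Without PF 1, without PF 2 or without PF 3, Itga8 alone of the list passed. Ren1, renin, ranged from 16.0 to 67.3 FPKM in PF and from 7.49 to 57.2 FPKM in PF_LPS, and its SE of 0.85 exceeded its log2 fold change of -0.66. Among fibroblast markers Col1a2, a collagen chain, fell by 0.88, the homeobox gene Meis1 fell by 0.49, and Dcn, the proteoglycan decorin, rose by 1.01, though not without PF 1. Without PF 1, PF 2, PF 3, PF_LPS 1 or PF_LPS 3 the count of falls was 1.

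In the proximal tubule, few transporter genes passed. All 29 markers of S1 and S2 were tested, 5 fell (17.2%, against 7.15% of all genes) and 1 rose (3.45%, against 11.8%). The median was -0.33, or -0.82 with equal totals. The list summed to 7046 to 9115 FPKM in PF and 6672 to 7474 FPKM in PF_LPS. Slc34a1, the main phosphate transporter of the brush border, measured 573, 664 and 882 FPKM in PF and 671, 465 and 477 FPKM in PF_LPS, and Slc5a2, the glucose transporter SGLT2, 50.7, 65.6 and 114 against 87.7, 42.7 and 67.9 FPKM. In both genes the groups overlapped.

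The S1 and S2 genes that fell were Slc7a8 and Slc6a19, carriers of neutral amino acids, Slc22a8, the organic anion transporter OAT3, Slc2a2, the basolateral glucose transporter GLUT2, and Hnf4a, the transcription factor that maintains proximal tubule identity. Slc6a19 was at 111, 131 and 198 FPKM in PF and 78.0, 60.2 and 85.9 FPKM in PF_LPS. Slc2a2 was at 115, 131 and 161 against 73.9, 76.1 and 62.4 FPKM and fell by 0.92 (adjusted p = 0.022). Hnf4a was at 117, 118 and 141 against 84.3, 60.6 and 51.8 FPKM and fell by 0.95 (adjusted p = 0.017), but by 0.61 with an adjusted p of 0.155 once the GC trend was removed.

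No library of one group reached the other in Slc6a19, Slc2a2 or Hnf4a. None of the 5 fell under every alternative, and the list's count of falls was 0 without PF 3, 2 without PF 2 or PF_LPS 3 and 3 without PF_LPS 2. Cyp27b1, which makes calcitriol, rose by 1.09 from 0.564, 0.477 and 0.485 to 1.66, 3.50 and 1.77 FPKM. Of 17 S3 markers, Slc5a1 (SGLT1) rose by 0.87, none fell, and the median was 0.08. With equal totals, where 19.7% of all genes fell, 3 of the 17 fell, none rose and the median was -0.37. Slc5a1 did not pass without PF 1, PF 2, PF 3 or PF_LPS 1.

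Of 14 tested thick limb markers 3 fell (21.4%, against 7.15% of all genes), none rose and the median was -0.40. Bsnd, barttin, the subunit that chloride channels of the distal nephron need to reach the membrane, was at 3.28, 5.27 and 5.53 FPKM in PF and 0.457, 0.472 and 0.494 FPKM in PF_LPS. It fell by 1.92 ± 0.19 (adjusted p = 1.35e-05) and under each alternative that tested it. Kcnj1, the potassium channel ROMK, measured 66.0, 58.1 and 56.3 against 24.6, 33.2 and 32.6 FPKM, and Sostdc1, a secreted inhibitor of BMP and Wnt, fell by 1.23. In Bsnd and Kcnj1 the groups stood apart, but without PF 1 or without PF 2 Bsnd alone of the list passed.

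The defining thick limb genes did not pass. Umod (uromodulin) measured 655, 703 and 564 FPKM in PF and 761, 603 and 910 FPKM in PF_LPS, and Slc12a1, the cotransporter NKCC2, 114, 89.5 and 69.4 against 96.7, 87.2 and 76.3 FPKM. Of 24 tested potassium and chloride channel genes 4 fell (16.7%, against 7.15% of all genes) and 2 rose (8.33%, against 11.8%). Kcnj10, the basolateral channel of the distal tubule, fell by 1.29 and Kcnj2 fell by 0.65, beside Bsnd and Kcnj1. Kcnk5 rose by 1.43 and Kcnk1 by 1.29, but neither passed with equal totals. The count of falls was 2 without PF 2 or without PF_LPS 1.

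In the distal convoluted and connecting tubule 3 of 19 genes fell (15.8%, against 7.15% of all genes) and 2 rose (10.5%, against 11.8%). The median was 0.11, or -0.36 with equal totals and -0.12 after quantile normalization. Wnk1 and Wnk4, kinases that set the activity of the thiazide-sensitive cotransporter, had log2 fold changes of -0.99 and -0.85, and Emx1, a homeobox gene, fell by 1.33. Wnk1 was at 304, 282 and 269 FPKM in PF and 156, 203 and 92 FPKM in PF_LPS. The cotransporter Slc12a3 was at 31.8, 50.7 and 61.5 against 48.9, 16.4 and 40.6 FPKM, with overlapping groups. Trpv5, the apical calcium channel, rose from 3.10, 3.24 and 3.81 to 12, 14.8 and 16.5 FPKM, and Trpm6, a magnesium channel, rose by 0.52 but not without PF 2, PF 3 or PF_LPS 2. Without PF 2, PF 3 or PF_LPS 3, Emx1 alone of the list fell.

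Some collecting duct genes of both cell types fell. Of 17 principal cell genes 5 fell (29.4%, against 7.15% of all genes), 1 rose (5.88%, against 11.8%) and the median was -0.52. Avpr2, the vasopressin receptor that controls water reabsorption, measured 2.43, 2.12 and 2.72 FPKM in PF and 0.423, 0.291 and 0.557 FPKM in PF_LPS. Hsd11b2, the enzyme that protects the mineralocorticoid receptor from glucocorticoids, measured 9.75, 14.3 and 13.6 against 7.0, 3.32 and 4.12 FPKM. Nr3c2, the mineralocorticoid receptor itself, measured 4.76, 4.31 and 4.36 against 2.15, 1.56 and 1.62 FPKM.

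Avpr2, Hsd11b2 and Nr3c2 had log2 fold changes of -1.27, -1.25 and -0.98 and fell under each alternative that tested them. Aqp3, the basolateral water channel, fell by 1.19 and Rhbg, an ammonia transporter that both cell types of the duct express, went from a mean of 2.48 to 0.659 FPKM, neither in every alternative, so that without PF 2, PF 3 or PF_LPS 2 the count was 3. Aqp2, the apical water channel, did not pass, at 2.54, 6.19 and 5.99 FPKM in PF and 5.15, 0.926 and 3.49 FPKM in PF_LPS. Sgk1, a kinase induced by mineralocorticoids, glucocorticoids and cell stress, rose by 2.05 from 17.0, 20.5 and 15.7 to 68.5, 56.5 and 114 FPKM. The summed list, 182 to 205 FPKM in PF and 159 to 209 FPKM in PF_LPS, includes that rise.

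Intercalated cells secrete acid or base, and 7 of their 16 tested genes fell (43.8%, against 7.15% of all genes), none rose and the median was -0.57. Atp6v1c2, a subunit of the V-type proton pump, was at 13.3, 11.7 and 9.97 FPKM in PF and 2.44, 4.06 and 3.20 FPKM in PF_LPS and fell by 1.59 ± 0.18 (adjusted p = 5.14e-05). Slc4a1, the anion exchanger AE1, was at 2.69, 3.65 and 6.96 against 1.00, 0.519 and 0.699 FPKM. Rhcg, an ammonia channel, Atp6v1b1, another pump subunit, Oxgr1, the receptor of 2-oxoglutarate, and the receptor Kit had log2 fold changes of -1.12, -1.02, -1.02 and -0.91, and Rhbg is the seventh gene. Atp6v1c2 and Slc4a1 fell under every alternative that tested them, and the list's count was 4 without PF 2 and 3 without PF 3.

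Other intercalated cell genes did not pass. Slc26a4 (pendrin) was at 13.2, 15.1 and 15.9 FPKM in PF and 12.3, 8.92 and 10.9 FPKM in PF_LPS, and Atp6v1g3 at 14.2, 15.5 and 18.1 against 13.7, 11.1 and 27.3 FPKM. The list summed to 377 to 462 FPKM in PF and 381 to 383 FPKM in PF_LPS, so its sum overlapped between groups while 7 of its members fell.

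**Figure D3:**
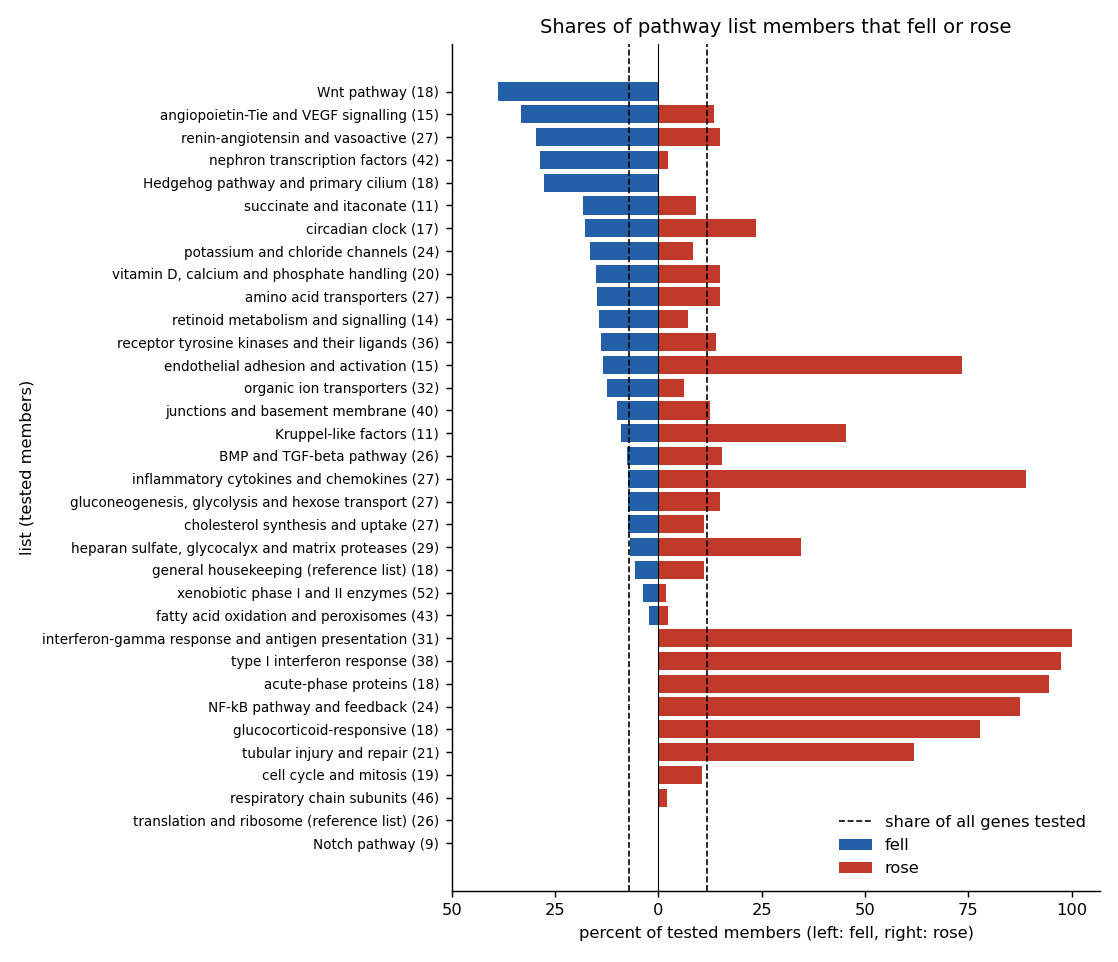
Share of tested members that fell (left) or rose (right) at an adjusted p under 0.05 in each list with 9 or more tested genes, with the shares over all genes tested, 7.15% and 11.8%, as dashed lines. Among the pathway lists, Wnt, angiopoietin and VEGF, vasoactive, transcription factor and Hedgehog lists hold the largest shares of falls, and interferon, acute-phase, cytokine and NF-kB lists the largest shares of rises; with equal FPKM totals 19.7% of all genes fell.

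Transcription factors of the nephron fell more often than they rose. Of 42 tested, 12 fell (28.6%, against 7.15% of all genes) and 1 rose, with a median of -0.45, or -0.87 with equal totals and -0.33 with the GC trend removed. Ppargc1a, the coactivator of mitochondrial biogenesis, measured 22.3, 20.2 and 19.7 against 6.58, 10.0 and 4.77 FPKM and fell by 1.47.

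Tfap2b, a factor of distal tubule, had a log2 fold change of -1.24 and a PF_LPS mean of 1.28 FPKM, and Vdr, the vitamin D receptor, fell by 1.10 from a mean of 37.6 to 17.8 FPKM. Lhx1, Esrrb, Thra, Hoxd9 and Mecom, named after their values were seen, had log2 fold changes of -0.93, -0.91, -0.88, -0.81 and -0.68. Pax8, a factor of the whole nephron, did not pass. Of the 12 falls 4 held under every alternative that tested them, and the count was 6 with the GC trend removed and 7 without PF_LPS 3.

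In the Wnt list 7 of 18 tested genes fell (38.9%, against 7.15% of all genes), none rose and the median was -0.43. Fzd1, a Wnt receptor, measured 12.4, 10.1 and 11.5 FPKM in PF and 4.76, 3.36 and 2.96 FPKM in PF_LPS and fell by 1.41. Sfrp1, a secreted Wnt antagonist, measured 18.2, 17.5 and 19.4 against 7.65, 9.44 and 7.02 FPKM and fell by 1.11. The coreceptor Lrp5, the ubiquitin ligase Znrf3, the secreted protein Dkk3 and the receptor Fzd8 had log2 fold changes of -0.96, -0.67, -0.66 and -0.56. Receptors and inhibitors of the pathway are thus both among the falls, and Fzd1 and Sfrp1 alone fell under every alternative. The count was 2 without PF 2 or PF_LPS 3 and 3 without PF 3 or with the GC trend removed.

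In the Hedgehog and cilium list 5 of 18 genes fell (27.8%, against 7.15% of all genes) and none rose. Glis2, a zinc finger protein of the cilium, was at 7.96, 10.7 and 13.3 FPKM in PF and 3.67, 2.37 and 2.25 FPKM in PF_LPS. Gas1, a coreceptor of Hedgehog ligands, fell by 1.32. The receptor Ptch1 and its partner Smo had log2 fold changes of -0.76 and -0.57. The count was 3 without any 1 of PF 1, PF 2, PF 3, PF_LPS 2 or PF_LPS 3, and 2 with the GC trend removed. The Notch list, with 9 genes tested, held no call in limma.

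Among 36 tested receptor tyrosine kinases and ligands 5 fell and 5 rose, 13.9% each against 7.15% and 11.8% of all genes. The rises numbered 2 without PF 1, PF 2 or PF 3, 3 without PF_LPS 1 and 1 with equal totals. Fgfr3, Erbb2, Ephb4, Kit and the ephrin Efnb2 had log2 fold changes of -1.44, -1.11, -0.91, -0.91 and -0.51, while Egfr, which recovering tubules use, rose by 0.90 and its ligand Hbegf by 1.24. Hbegf passed, of the fits without 1 library, in that without PF_LPS 2 alone. Fgfr3 was at 3.04, 7.68 and 7.94 FPKM in PF and 1.66, 1.35 and 1.49 FPKM in PF_LPS. Without PF 2 the falls numbered 3 and without PF 3 they numbered 2.

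Several receptors of vasoactive hormones fell. Of 27 tested genes 8 fell (29.6%, against 7.15% of all genes), 4 rose (14.8%, against 11.8%) and the median was -0.31. Besides Npr3, Ramp2, Avpr2 and Agtr1a, Ednrb, the endothelin B receptor, fell by 1.09 from 6.80, 6.27 and 5.44 to 2.28, 2.49 and 2.31 FPKM. Adra1a, an alpha-1 adrenergic receptor, fell by 1.28 from 4.74, 3.03 and 3.65 to 1.26, 0.891 and 0.769 FPKM. In both the groups stood apart, and 6 of the 8 falls held under every alternative that tested them.

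Ptgs1, the constitutive cyclooxygenase, was at 5.09, 5.38 and 6.20 FPKM in PF and 2.28, 1.17 and 1.65 FPKM in PF_LPS and fell by 1.30. Ptgs2, the inducible one, was at 0.342, 0.235 and 0.0697 against 7.22, 10.2 and 7.23 FPKM and rose by 2.91. Nos2, inducible nitric oxide synthase, rose by 2.87 and Edn1, endothelin 1, by 1.46. The pair of cyclooxygenases thus moved in opposite directions, and the gene for inducible nitric oxide synthase rose while those for the subunits of the nitric oxide receptor fell.

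Of 20 vitamin D and mineral genes tested, 3 fell and 3 rose, 15% each against 7.15% and 11.8% of all genes, with a median of -0.13. With Cyp24a1 and Vdr, Casr, the calcium-sensing receptor, fell by 1.70 ± 0.26, from 11.8, 9.79 and 8.89 FPKM to 2.57, 3.63 and 1.44 FPKM (adjusted p = 0.000594). Cyp27b1, Trpv5 and the phosphate transporter Slc20a1 rose, the last from 8.79, 15.1 and 11.7 to 58.0, 49.4 and 35.3 FPKM. The degrading enzyme and the receptor of calcitriol were thus lower and the synthesising enzyme higher in the same libraries. Cyp27b1, however, was under 1 FPKM in every PF library, so it entered through PF_LPS alone and had to be higher there. The list's falls numbered 2 without PF 2, PF 3 or PF_LPS 3. Under every alternative that tested them, 2 of the 3 falls and all 3 rises held.

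Around succinate, Slc13a2, a dicarboxylate carrier, fell by 0.87 with Sucnr1, while Acod1, which makes itaconate, rose from at most 0.0165 FPKM to 7.27, 7.07 and 9.56 FPKM. Slc13a2 did not pass without PF 2, PF 3, PF_LPS 2 or PF_LPS 3. The retinoic acid receptors Rarb and Rarg had log2 fold changes of -0.89 and -0.92, and Aldh1a2, which makes the ligand, went from a mean of 0.736 to 3.27 FPKM and rose. Rarg did not pass without PF 2, PF_LPS 1 or PF_LPS 3.

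Carriers of organic ions and sulfate moved individually. Of 32 tested 4 fell (12.5%, against 7.15% of all genes) and 2 rose (6.25%, against 11.8%), with a median of 0.10, or -0.36 with equal totals. Slco2b1 fell by 1.29, Slc26a1, a basolateral sulfate exchanger, fell by 1.14, and Slc22a4, a carrier of ergothioneine and carnitine, fell by 0.61. Slc22a8 is the fourth. Slc26a1 was at 22.5, 26.2 and 39.1 FPKM in PF and 16.6, 10.7 and 10.7 FPKM in PF_LPS. Slc13a1, the apical sulfate carrier, rose by 2.12 from 215, 224 and 231 to 876, 1215 and 869 FPKM. The 2 sulfate transporters of opposite membranes therefore moved in opposite directions.

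Of 27 tested amino acid carriers 4 fell, Slc43a2, Slc7a8, Slc36a1 and Slc6a19, and 4 rose. That is 14.8% each, against 7.15% and 11.8% of all genes, with a median of 0.07, or -0.43 with equal totals. Slc38a2, an inducible carrier of neutral amino acids, rose by 1.64. Without PF 3 the falls numbered 2.

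Metabolic lists held few calls. Of 43 genes of fatty acid oxidation and peroxisomes, Ppargc1a fell, though not without PF_LPS 3, and Crot rose, though not without PF 2, PF 3, PF_LPS 2 or PF_LPS 3, with a median of -0.07, or 0.07 with the GC trend removed. Of 46 respiratory chain subunits none fell and Cox6c rose, with a median of 0.11, or -0.39 with equal totals. Cox6c did not pass without PF 1, PF 2, PF 3, PF_LPS 2 or PF_LPS 3, in the fit on 6 libraries or with equal totals, and without PF_LPS 1 the list had 4 rises. Of 52 enzymes of xenobiotic metabolism, Cyp2u1 fell by 0.85, Cyp2s1 fell by 0.66 and Cyp2b10 rose by 1.72. These shares of falls, 2.33%, 0% and 3.85%, are under the 7.15% of all genes. For the xenobiotic list that depended on the scaling, with 9 falls after quantile normalization. With equal totals 14 of its 52 genes fell, in a setting where 19.7% of all genes fell. Ribosomal genes, the reference list, had 0 calls in limma among 26 tested and a median of 0.20, or -0.30 with equal totals.

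In the cholesterol list the sterol carrier Stard4 fell by 1.32 and the synthetic enzyme Dhcr7 fell by 1.11, while Sqle, squalene epoxidase, rose by 1.41 and Msmo1 by 1.01. Stard4 was at 21.9, 21.8 and 29.1 FPKM in PF and 10.9, 9.43 and 7.17 FPKM in PF_LPS. The list's rises went from 3 to 1 without PF 1, without PF 2 or with equal totals, where Sqle alone of the named rises passed. Dhcr7 did not pass without PF 1, PF 2, PF 3, PF_LPS 1 or PF_LPS 2. Among 27 genes of glucose metabolism, Slc2a2 and Slc2a9, a urate carrier, fell (7.41%, near the 7.15% of all genes), and the count of falls was 0 without PF 2, 1 without PF 3 or PF_LPS 3 and 4 without PF 1. In the same list, Pfkfb3 rose by 3.32 and Hk2 by 2.01.

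Of 17 clock genes 3 fell (17.65%, against 7.15% of all genes) and 4 rose (23.53%, against 11.8%). The rises numbered 1 without PF 1, without PF 3, with equal totals or after quantile normalization, and 2 without PF_LPS 1 or PF_LPS 2. Hlf and Tef, PAR bZIP factors that activate D-box genes, had log2 fold changes of -1.70 and -1.12, and Nfil3, the repressor at the same element, rose by 3.56. Hlf was at 14.0, 18.3 and 23.5 FPKM in PF and 6.09, 5.52 and 3.44 FPKM in PF_LPS, and Nfil3 at 1.99, 0.504 and 0.469 against 27.1, 14.6 and 23.6 FPKM. Nr1d1 (Rev-erb alpha) fell by 1.13, but it overlaps Thra on the opposite strand, and Nr1d2 rose by 0.88 but not without PF 1, PF 3, PF_LPS 2 or PF_LPS 3. Of 11 tested Kruppel-like factors 5 rose (45.45%, against 11.8% of all genes) and 1 fell (9.09%, against 7.15%). The fall was Klf15, a glucocorticoid-responsive factor of podocytes and tubules, by 0.96, and it did not pass with the GC trend removed. Klf6 rose by 4.04, and the list's rises numbered 1 with equal totals.

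Of 29 genes of glycocalyx and matrix proteases 10 rose (34.5%, against 11.8% of all genes) and 2 fell (6.90%, near the 7.15% of all genes). The median was 0.23. With equal totals 7 rose and the median was -0.24. The falls were Adamts15 and Adamts5, aggrecan-cleaving proteases, which went from means of 2.84 and 2.76 FPKM to 0.559 and 0.650 FPKM, while their relative Adamts4 rose by 2.85. Cxcl12, a homeostatic chemokine, fell by 1.16 from 20.3, 26.6 and 24.4 to 8.10, 12 and 10.3 FPKM, and Cxcl14 fell by 0.85. They were the 2 falls among 27 cytokine and chemokine genes (7.41%, near the 7.15% of all genes). Of the same 27 genes 24 rose (88.9%, against 11.8% of all genes). Of 40 junction and basement membrane genes 4 fell (10%, against 7.15% of all genes) and 5 rose (12.5%, near the 11.8% of all genes). The falls numbered 2 without PF 2 and 1 without PF 3 or PF_LPS 2, the rises 3 without PF 2 or PF 3 and 0 with equal totals. Cldn15, a paracellular sodium channel, fell from a mean of 2.66 to 0.271 FPKM.

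A set of 4 protein-coding genes and a group of small RNA genes with PF means of at least 1 FPKM were under 0.1 FPKM in every PF_LPS library. Exoc3l2, an exocyst-related gene, was at 2.18, 3.76 and 4.89 FPKM in PF and 0.0797, 0.0211 and 0.0573 FPKM in PF_LPS. Dusp9, a phosphatase of MAP kinases, was at 1.11, 1.29 and 1.23 against 0.0210, 0.0637 and 0.0682 FPKM. Mmp11, a matrix metalloproteinase that overlaps Chchd10 on the opposite strand, went from a mean of 1.97 to 0.0740 FPKM, and the predicted gene Gm10337 was listed at 0 in PF_LPS. Small RNA genes of this kind, such as Gm25970 at 177, 59.9 and 24.7 FPKM in PF, are short, and a value of 0 can stand for a feature that was not estimated: each of the 37 mitochondrial genes was also at 0 in all libraries.

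Leukocyte markers moved by cell type. Of 20 genes of neutrophils and inflammatory monocytes 13 were tested, and 12 of these rose (92.3%, against 11.8% of all genes). The whole list summed to 9.04 to 13.8 FPKM in PF and 227 to 501 FPKM in PF_LPS. With sums so low in PF, a member under 1 FPKM there could enter only through PF_LPS and had to be higher in it. The share of rises is in part set by the filter. S100a8, a calprotectin subunit, went from 1.52, 0.845 and 2.09 to 68.9, 91.7 and 173 FPKM. Ccr2, the receptor that brings monocytes out of the marrow, was the fall, at 4.43, 3.23 and 3.98 FPKM in PF and 1.02, 1.54 and 1.54 FPKM in PF_LPS (adjusted p = 0.00295).

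Of 18 macrophage and dendritic cell genes 5 rose (27.8%, against 11.8% of all genes), 1 fell (5.56%, against 7.15%) and the median was -0.16. Adgre1, a receptor of tissue macrophages, was at 1.28, 1.15 and 1.34 FPKM in PF and 1.09, 1.00 and 1.34 FPKM in PF_LPS, and Csf1r at 4.35, 4.15 and 4.29 against 3.67, 1.76 and 2.08 FPKM, neither of which passed. Aif1 fell by 0.97, in 11 of 19 alternatives, and without PF 1, PF 2, PF 3, PF_LPS 2 or PF_LPS 3 it did not pass. Lymphocyte markers were low, with 16 of 23 under 1 FPKM in every library. Erythroid and platelet genes, a sign of blood in the sample, summed to 180 to 315 FPKM in PF and 214 to 597 FPKM in PF_LPS, and none of the 9 tested passed.

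The rises were led by interferon and acute-phase genes. Of 38 type I interferon response genes 37 rose, of 31 interferon-gamma and antigen presentation genes all 31, of 24 NF-kB genes 21 and of 18 acute-phase genes 17. Those shares were 97.4%, 100%, 87.5% and 94.4%, against 11.8% of all genes tested, and the medians were 4.23, 4.19, 2.12 and 4.53. Cxcl10, a chemokine of T cells, had the highest fold change, from 2.01, 1.53 and 3.58 FPKM to 1488, 1954 and 1856 FPKM. Ifit1, an antiviral RNA sensor, went from 1.13, 1.19 and 1.57 to 661, 910 and 843 FPKM, and Fgg, the fibrinogen gamma chain, from 5.55, 6.38 and 4.71 to 1307, 1284 and 1143 FPKM. Of 21 injury genes 13 rose (61.9%, against 11.8% of all genes) and none fell. Among them Havcr1 (KIM-1) went from 1.92, 0.897 and 1.03 to 61.9, 28.6 and 34.6 FPKM.

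Promoters from RefSeq (GRCm38.p6, 250 bases before to 50 after the gene start) were matched by symbol for 8902 of 11197 protein-coding members and searched on both strands for 3 motifs. The interferon-stimulated response element, written GAAANNGAAA, was in 14.6% of 683 genes that rose by at least 1 log2 unit, 0.922% of 217 that fell by at least 1, 3.20% of 7177 that did not pass and 3.99% of all 27025 promoters in the table. An NF-kB site, GGGANNTTCC, was in 3.95%, 0.922%, 1.63% and 1.63% of these sets, and the ETS motif CCGGAAG in 10.4%, 5.99%, 22.9% and 9.93%. A promoter can count under more than 1 motif. A match describes the letters of this window and shows no binding. The promoters of Ifit1 (chr19:34640639-34640938, plus strand) and Cxcl10 (chr5:92348840-92349139, minus strand) are shown because these genes rose most, read 5′ to 3′ along the gene, with matches in capitals.
Ifit1: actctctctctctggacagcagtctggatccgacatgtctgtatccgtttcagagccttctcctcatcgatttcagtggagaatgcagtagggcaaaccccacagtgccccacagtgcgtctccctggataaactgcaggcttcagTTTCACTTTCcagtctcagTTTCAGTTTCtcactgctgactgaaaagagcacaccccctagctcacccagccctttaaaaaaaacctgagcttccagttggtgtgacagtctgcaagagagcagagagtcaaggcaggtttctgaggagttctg
Cxcl10: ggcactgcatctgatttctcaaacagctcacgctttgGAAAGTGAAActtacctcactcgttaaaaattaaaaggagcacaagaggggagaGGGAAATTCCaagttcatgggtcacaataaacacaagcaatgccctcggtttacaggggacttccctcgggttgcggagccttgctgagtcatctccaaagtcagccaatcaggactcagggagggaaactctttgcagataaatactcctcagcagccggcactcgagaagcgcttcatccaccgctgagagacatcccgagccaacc
In Ifit1 both capital runs are interferon elements on the opposite strand, starting 104 and 85 bases before the gene start. In Cxcl10 the first run, 213 bases before the start, is the interferon element and the second, 159 bases before, the NF-kB site.

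**Figure D4:**
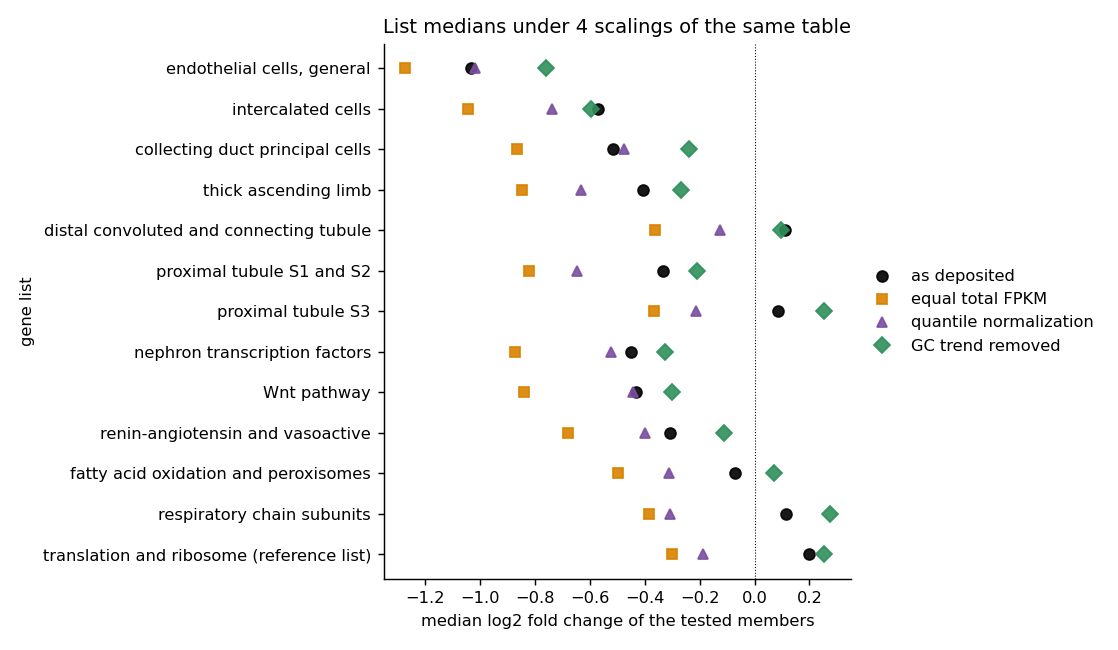
Median log2 fold change of the tested members of 13 lists as deposited, with equal FPKM totals, after quantile normalization and with the GC trend removed. The endothelial, intercalated, principal cell, thick limb, S1 and S2, transcription factor, Wnt and vasoactive medians are below 0 in all 4, whereas the S3, distal convoluted tubule, respiratory chain and ribosomal medians are above 0 as deposited and below 0 with equal totals.

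GC content differed between the sets of genes. The median transcript GC was 52.5% among the 934 genes that fell, 47.6% among those that rose and 49.4% among the others. With each library's GC trend removed, the medians of the endothelial, intercalated, principal cell and vasoactive lists were -0.76, -0.60, -0.24 and -0.11, against -1.03, -0.57, -0.52 and -0.31 as deposited. In that setting 15 endothelial, 7 intercalated, 5 principal cell and 7 vasoactive genes fell, against 14, 7, 5 and 8 as deposited, while the transcription factors went from 12 falls to 6, the Wnt list from 7 to 3 and the Hedgehog list from 5 to 2. With equal totals, where 19.7% of all genes fell, the falls were 24 of 42 transcription factors, 10 of 29 S1 and S2 genes and 10 of 16 intercalated cell genes. They were also 10 of 32 organic ion carriers, 10 of 27 amino acid carriers and 9 of 17 principal cell genes. For thick limb genes they were 8 of 14, and for receptor tyrosine kinases and their ligands 11 of 36. As deposited, 7.15% of all genes fell, so these counts include a shift of all genes toward falls. The part of GC content in the falls was not tested further.

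Ethanol-fed mice given the same LPS dose offered a comparison that does not share control libraries. It does share each gene's estimate of the spread with the pair-fed comparison, and the genes were filtered on the pair-fed libraries. Its calls are therefore not independent of the pair-fed calls. Of the 934 genes that fell on the control diet 521 (55.8%) also fell there, against 6.56% of the genes tested, 911 had a log2 fold change below 0 and none rose. Of the genes that fell in the ethanol-fed comparison 60.9% fell in the pair-fed one. Of the 312 that fell under every alternative, 260 fell and 309 were below 0. The endothelial list had 13 falls and a median of -0.94 there, the intercalated list 3 and -0.34, the principal cell list 3 and -0.41, the transcription factors 13 and -0.45, and the S1 and S2 list 0 and 0.03.

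The difference between diets was tested gene by gene as an interaction, and 1 gene passed, the small RNA gene Gm22586, with 582 at an unadjusted p under 0.05. Cyp24a1 went from a mean of 25.8 FPKM in EtOH to 16.1 FPKM in EtOH_LPS, a log2 fold change of -0.87, against -4.33 on the control diet, and the interaction of -3.46 ± 0.89 did not pass (adjusted p = 0.875). Plau, which fell by 1.35 on the control diet, had means of 128 and 236 FPKM in the ethanol-fed groups, and its interaction of -2.12 ± 0.49 did not pass either (adjusted p = 0.875). For the S1 and S2 list, therefore, 5 falls in 1 diet and 0 in the other are given side by side, and no gene of it passed the test of the difference.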

How the data were processed

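RNA was measured in 12 kidney cortex libraries, of which 6 form the comparison. The submitters' processing notes name Cuffnorm, Cuffdiff 2.1.1, Cufflinks 2.2.1, TopHat2 2.0.4 and FastQC 0.10.1 beside build mm10, and the authors deposited 1 table of normalized FPKM values per Ensembl gene. The labels' protocols name a stranded total RNA kit with removal of ribosomal RNA. For the annotation release and strand setting, the sources used here give nothing. FPKM are not counts, fragment totals are not in the table, and no count model was run. Symbols, coordinates, transcript GC and strand overlaps came from GENCODE M21 (GRCm38), which matched 47219 of the table's genes and not the other 500.

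Values were analysed as log2(FPKM + 1) in limma 3.58.1 (R 4.3.3), with 1 mean per group over all 12 libraries (8 residual degrees of freedom), moderated variances with an intensity trend and a robust prior, two-sided tests, and Benjamini-Hochberg adjustment over 13058 genes at a threshold of 0.05. The fit was tested on simulated data. An exact permutation test of 3 against 3 libraries cannot go below p = 0.1, so none was run on single genes. GC trends were removed per library with lowess (span 0.3).

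The genes, the 55 lists (1294 symbols, 995 past the filter) and the rule for named genes were chosen with earlier results of these data known. No list was tested as a set: counts and medians describe it. The rule named, among non-overlapping protein-coding genes at 5 FPKM or more, the 24 lowest and 10 highest fold changes, then up to 6 falling and 3 rising members of each list, the first 4 measured markers of each cell type, and genes under 0.1 FPKM in all PF_LPS libraries. Plvap, Erg, Calcrl, Ren1, Slc26a4, Egfr, Kap and Gucy1b1, and the transcription factors so marked in the text, fall outside that rule and were chosen after their values were seen. Alternatives were other pseudocounts, filters, scalings and priors, the 6 libraries alone, a replicate block, GC removal, and leaving out each library. Some genes that the rule names are not reported here. A further alternative, without PF_LPS 2 and PF 1, was added after seeing the data.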

Additional observations from a re-analysis of the deposited data

Results flagged for a closer look

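Gm22586, a short ribosomal RNA gene, differed in its LPS response between the diets. It measured 7.83, 7.93 and 6.53 FPKM in the 3 PF libraries and was listed at 0 in the 3 PF_LPS, 3 EtOH and 3 EtOH_LPS libraries. The interaction of diet and LPS was -3.07 on the log2 scale (adjusted p = 1.2e-05 in limma). What sets its value above 0 in those 3 libraries was not tested, and libraries had ribosomal RNA removed per the labels.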

How the results depend on the processing

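Of the counts over all genes, 1537 rises and 934 falls, the falls moved most. They numbered 365 with a filter of 5 FPKM, where 8436 genes were tested, 2576 with equal FPKM totals, 2284 with equal totals over protein-coding genes, and 605 in a fit on the 6 pair-fed libraries alone, which has 4 residual degrees of freedom. Without PF_LPS 2 and PF 1, a choice made after seeing the data, 534 fell and 1168 rose. Leaving out 1 library at a time gave 484 to 1043 falls and 1127 to 1650 rises, lowest for falls without PF 2 and for rises without PF 3. Rises numbered 841 with equal totals and 1010 with equal totals over protein-coding genes. Quantile normalization moved the median of all genes to -0.12 and gave 1203 falls and 1348 rises. No named gene passed in the opposite direction in any setting. The replicate numbers did not pair the libraries: deviations of same-numbered PF and PF_LPS libraries correlated at -0.264, -0.053 and 0.198, and a fit with the replicate number as a block gave 817 falls and 1425 rises, or 758 and 2122 with the GC trend removed as well. Fragment totals are unknown, so no interval for counting error can be given.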
